A study of Mus musculus with 4 samples.

Results

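The Hox genes encode homeodomain transcription factors that lie in 4 clusters, A to D, on separate chromosomes. They were described here in sorted mouse skin epithelium. Members were all genes with a probe set annotated to a single Hoxa, Hoxb, Hoxc or Hoxd symbol followed by a number. This gave 31 genes, from 37 probe sets, of 12393 genes measured. The other Hox genes were not analysed here. Each gene was represented by its probe set with the highest mean log2 signal over the 4 arrays.

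Within a cluster the genes are numbered from 1, at the end expressed earliest and most anteriorly in the embryo, to 13, at the posterior end, and genes with the same number in different clusters are paralogues. In adult skin, Hox genes are known as part of the positional memory that differs between body sites. Hoxc13 is known for its part in hair shaft formation and in the control of hair keratin genes. Hox proteins bind DNA with cofactors of the TALE homeodomain class, the Pbx, Meis and Pknox families.

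RNA came from back skin of K14-GFP-actin transgenic mice, in which the keratin 14 promoter drives GFP-tagged actin in basal keratinocytes. All mice were 49 days old (postnatal day 49), an age at which back skin follicles are in their resting phase. The total group (2 arrays) held all living GFP-expressing cells. The bulge group (2 arrays) held the GFP-expressing cells with high α6 integrin and high CD34, which selects basal bulge cells, the stem cell compartment of the follicle. The cell type label reads the same, basal bulge stem cells, for all 4 samples, and the groups follow the titles and the sorted population. Both groups carried the same transgene, and bulge cells were not removed from the total sort. The labels do not tell whether the replicates were different animals, and p-values therefore speak only of how these samples vary, in part perhaps technically.

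Signals are given as log2 of the deposited intensity, and each difference is the bulge mean minus the total mean, with n = 2 arrays per group throughout. No detection call was given for the probe sets. A background level of 7.23 was therefore taken from the 95th percentile of 67 olfactory, vomeronasal and taste receptor genes, and a gene counts as above background where a group mean exceeds it. Signals of different probe sets are not compared with each other. Cd34, whose protein was used in the sort, served to check the grouping, with log2 signals of 9.72 and 10.16 on total arrays against 13.94 and 13.78 on bulge arrays. Itga6, the gene of the α6 integrin also used in the sort, went the other way. It had 12.46 and 11.77 on total arrays against 11.69 and 10.73 on bulge arrays, with adjusted p = 0.607 by trended limma. The keratin genes Krt5, Krt10, Krt14 and Krt15 were above background on all 4 arrays. Of the other keratinocyte and bulge markers, Lgr5 and Lhx2 rose and Krt1 and Krt79 fell in the limma fit with an intensity trend. With 2 arrays against 2, an exact permutation test of a single gene, two-sided, cannot give a p below 0.333, so single genes were tested with limma across all 12393 genes, adjusted by Benjamini-Hochberg.

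Hoxd8, Hoxd9 and Hoxc13 were higher in the bulge group in the limma fit with an intensity trend, and Hoxc4 had the largest difference in the other direction among the Hox genes above background. Of the 31 genes, 14 were above background in at least 1 group and 17 in neither. In the limma fit without the trend 0 of the 31 passed an adjusted p of 0.05, where 0 of 12393 genes did (0%). At an unadjusted p under 0.05 in that fit, 9 Hox genes were higher and 2 lower, and of all 12393 genes 642 were higher and 655 lower. Of these Hox genes, Hoxb3, Hoxd10 and Hoxd13 (higher) and Hoxc9 (lower) were below background in both groups. Hoxb5, Hoxc13 and Hoxd9 were above it in the bulge group alone, so they could only be higher there. In the trended fit 3 Hox genes rose and 0 fell, where 1.08% of all genes were called, 0.557% higher and 0.524% lower. Without either total array the trended fit called 0 Hox genes. It called 4 without bulge replicate 1 (Hoxc4 lower in addition) and 2 without bulge replicate 2 (Hoxd8 and Hoxc13). When only the 7249 genes above background were tested without the trend, the same 3 Hox genes rose, where 3.06% of genes were called, 1.43% higher and 1.63% lower. Hoxc13 and Hoxd9 entered that smaller table only through the bulge group, where they are high, so their calls there are no further support. The verb rose below refers to the trended fit.

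**Figure D1:**
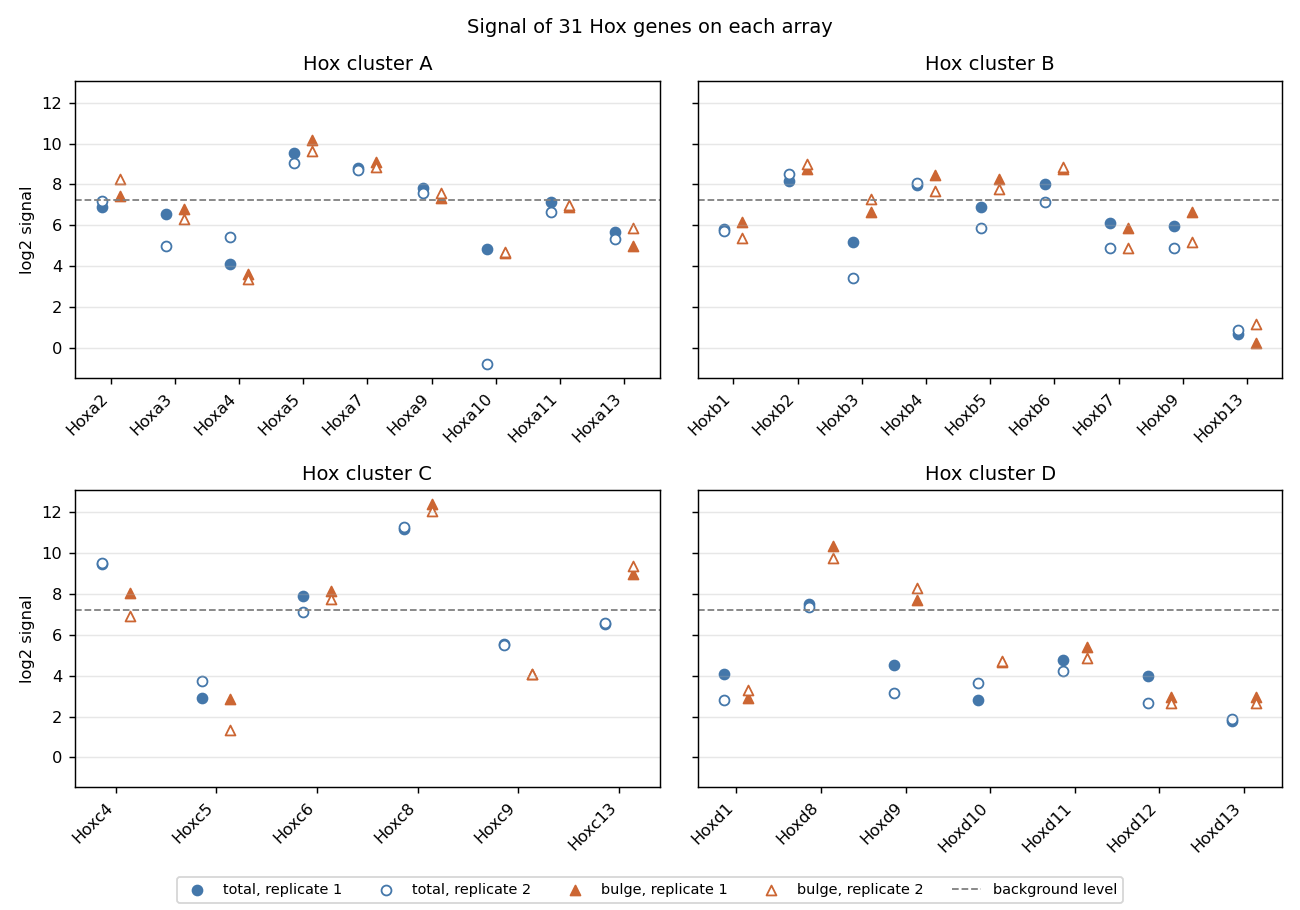
Log2 signal (y axis) of each of the 31 Hox genes (x axis, in cluster order) on the 2 total arrays (circles) and the 2 bulge arrays (triangles), with replicate 1 filled and replicate 2 open. The dashed line is the background level of 7.23. Hoxd8, Hoxd9 and Hoxc13 have both bulge arrays well above both total arrays, and Hoxc4 has both below.

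Hoxd8 and Hoxd9, the genes that rose in the D cluster, are adjacent protein-coding genes in the RefSeq table, which also lists non-coding RNA genes across the spans of Hoxd8 (Gm38462) and Hoxc4 (Gm30528). Their promoters are shown because the pair moved together. Hoxc4 is shown beside them as the gene that lay lower. Each line gives the 250 bases before a RefSeq start (GRCm38.p6), 5′ to 3′ on the gene's strand, with capitals for the core letters TAAT of homeodomain sites on either strand, where ATTA is the match on the opposite strand.
Hoxd9 (chr2:74697513-74697762, + strand): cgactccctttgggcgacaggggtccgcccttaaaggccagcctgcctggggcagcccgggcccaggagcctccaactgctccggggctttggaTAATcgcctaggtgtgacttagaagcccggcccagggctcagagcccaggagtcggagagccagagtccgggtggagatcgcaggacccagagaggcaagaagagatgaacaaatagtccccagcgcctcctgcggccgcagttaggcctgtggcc
Hoxd8 (chr2:74704365-74704614, + strand): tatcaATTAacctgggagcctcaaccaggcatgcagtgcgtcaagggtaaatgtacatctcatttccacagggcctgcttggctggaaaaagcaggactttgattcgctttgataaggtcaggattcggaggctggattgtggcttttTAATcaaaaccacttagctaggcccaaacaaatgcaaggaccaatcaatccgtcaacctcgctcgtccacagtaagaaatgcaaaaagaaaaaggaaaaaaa
Hoxc4 (chr15:103034145-103034394, + strand): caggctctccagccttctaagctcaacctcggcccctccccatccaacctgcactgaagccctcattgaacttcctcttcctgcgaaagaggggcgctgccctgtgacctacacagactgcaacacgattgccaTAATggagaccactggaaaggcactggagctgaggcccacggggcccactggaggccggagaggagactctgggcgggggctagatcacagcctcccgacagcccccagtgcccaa

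The Hoxd9 window had a GC content of 65.2% with 13 CpG dinucleotides, the Hoxd8 window 44.4% with 6 and the Hoxc4 window 62.0% with 8. Over 32841 promoter windows of the same length the median GC content was 52.4% and the median number of CpG dinucleotides 6. The letters TAAT were in 1 place in the Hoxd9 window, in 2 in the Hoxd8 window and in 1 in the Hoxc4 window. Of all windows 54.9% held TAAT, as did 15 of the 20 windows that the RefSeq table gives for 18 measured Hox genes. The longer Hox-Pbx letters TGATNNAT, searched on both strands, were in none of the 3 windows shown, in 3 of the 20 Hox windows (Hoxa2, Hoxb1 and Hoxd11) and in 7.69% of all windows. A match or its absence describes these letters in this window only.

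In the D cluster, 7 genes were measured and only Hoxd8 and Hoxd9 were above background. Hoxd8, a gene of the central part of the cluster, had log2 signals of 7.52 and 7.36 on total arrays against 10.34 and 9.76 on bulge arrays. The groups did not overlap, and the total arrays lay just above background. Hoxd8 rose 6.09-fold, with means of 7.44 ± 0.11 (SD, n = 2) and 10.05 ± 0.41 (SD, n = 2) and a difference of 2.61 ± 0.41 (SE, 95% interval 1.57 to 3.64). Its adjusted p was 0.0441 in the trended limma fit and 0.108 without the trend, and ranged from 2.64e-04 to 0.341 over the other settings.

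Hoxd9, the next gene towards the posterior end, had log2 signals of 4.54 and 3.16 on total arrays against 7.72 and 8.29 on bulge arrays. It was below background on both total arrays and above it on both bulge arrays. Hoxd9 rose at least 1.71-fold, the bound set by the background level. The fitted difference was 4.16 ± 0.59 (SE), which depends on signals under background, with adjusted p = 0.0479 by trended limma and 0.0912 without the trend (7.56e-04 to 0.221 over the other settings). The call was lost in the trended fit without bulge replicate 2, at an adjusted p of 0.0724.

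Beyond Hoxd9, the posterior genes Hoxd10, Hoxd11, Hoxd12 and Hoxd13 were below background on all 4 arrays, as was Hoxd1 at the other end. Hoxd10 had signals of 2.82 and 3.62 on total arrays against 4.66 and 4.71 on bulge arrays, so that the groups were separate, yet both lay under background and no fold is given. A pair of probe sets annotated to both Hoxd3 and Hoxd4 was not used for either gene. Of these, 1 was below background on all 4 arrays and the other exceeded it on bulge replicate 1 alone, at 7.39.

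In the C cluster, 6 genes were measured and 4 were above background. They differed in direction. Hoxc13, the gene at the posterior end of the cluster, had signals of 6.52 and 6.59 on total arrays against 8.98 and 9.37 on bulge arrays. Both total arrays were below background and both bulge arrays well above it. Hoxc13 rose at least 3.85-fold, with a fitted difference of 2.62 ± 0.39 (SE), adjusted p = 0.0442 by trended limma (0.0982 without the trend, 6.10e-04 to 0.311 over the other settings).

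Hoxc8, a central gene, had signals of 11.15 and 11.29 on total arrays against 12.39 and 12.04 on bulge arrays. The bulge arrays were both higher, by 2.0-fold on average. The difference of 1.0 ± 0.38 (SE, 95% interval 0.03 to 1.97) did not pass, with adjusted p = 0.337 by trended limma. Hoxc6, its neighbour among the measured genes, had 7.89 and 7.09 against 8.16 and 7.76, and its groups overlapped. The probe set used for Hoxc6 is of the type (suffix x) that can share sequence with other transcripts, and both other Hoxc6 probe sets were below background on all 4 arrays.

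Hoxc4, the most anterior gene of the C cluster, had signals of 9.48 and 9.51 on total arrays against 8.02 and 6.93 on bulge arrays. The total arrays were close to each other and both above the bulge arrays, of which 1 was below background. Hoxc4 lay at least 3.66-fold lower in the bulge group, with a difference of -2.02 ± 0.50 (SE, 95% interval -3.27 to -0.76), and did not pass, with adjusted p = 0.126 by trended limma. Without bulge replicate 1 the trended fit gave -2.56 and an adjusted p of 0.0207. Over all its settings the adjusted p ran from 0.00358 to 0.581. Of 14 measured leukocyte markers, 13 were lower on both bulge arrays than on either total array, beside 20.5% of all genes. In the trended fit 6 fell, beside 0.524% of all genes. The summed signal of the 14 was 13337 and 16062 on total arrays against 1426 and 2034 on bulge arrays. Those that fell were Csf1r, Ctss, H2-Aa, H2-Ab1, Itgae and Ptprc. The direction was that of Hoxc4. Both groups were sorted for GFP driven by the keratin 14 promoter, and the part of leukocytes in the Hoxc4 difference was not tested. In bulk samples, fewer cells of a type and less RNA per cell cannot be told apart. Hoxc5 and Hoxc9 were below background on all 4 arrays. Hoxc9 had 5.57 and 5.51 on the total arrays against 4.10 and 4.06 on bulge arrays, and no fold is given.

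In the B cluster, 9 genes were measured and Hoxb2, Hoxb4, Hoxb5 and Hoxb6 were above background. None passed in either fit. Hoxb6 had signals of 8.01 and 7.15 on total arrays against 8.76 and 8.83 on bulge arrays, at least 2.25-fold higher, with adjusted p = 0.339 by trended limma. Hoxb5, the next gene towards the anterior end, had 6.91 and 5.88 against 8.28 and 7.77, at least 1.73-fold higher, with an adjusted p of 0.268 (0.0283 to 0.999 over the other settings). For both neighbours the bulge arrays lay above the total arrays, and Hoxb5 was above background in the bulge group alone.

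Hoxb2, a gene known for hindbrain patterning, had 8.18 and 8.53 on total arrays against 8.74 and 8.98 on bulge arrays, a difference of 0.51 (95% interval -0.48 to 1.49). Hoxb4, known as a regulator of blood stem cells, had 7.96 and 8.08 against 8.48 and 7.67, and its groups overlapped, with a difference of 0.05 (95% interval -1.07 to 1.18). Its other probe set gave 0.35. Hoxb3 had 5.21 and 3.40 on total arrays against 6.66 and 7.27 on bulge arrays, of which the last alone exceeded background. A probe set annotated to both Hoxb7 and Hoxb8, not used for either gene, had 6.88 and 7.14 on total arrays against 8.17 and 7.42 on bulge arrays, with a difference of 0.78. Hoxb7 by its own probe set, and Hoxb1, Hoxb9 and Hoxb13, were below background on all 4 arrays.

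In the A cluster, 9 genes were measured and Hoxa2, Hoxa5, Hoxa7 and Hoxa9 were above background. Their differences were smaller than those of Hoxd8 and Hoxc13, and none passed in either fit. Hoxa5 had signals of 9.53 and 9.03 on total arrays against 10.19 and 9.61 on bulge arrays, 1.53-fold higher on average with an interval of -0.49 to 1.72 on the log2 scale. Hoxa7, known from work on keratinocyte differentiation, had 8.82 and 8.72 against 9.12 and 8.85, a difference of 0.21 (95% interval -0.74 to 1.16). For both genes the groups did not overlap, but the gap was small beside the spread of the bulge arrays.

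Hoxa9, a gene known for its part in leukaemia, had 7.81 and 7.57 on total arrays against 7.34 and 7.59 on bulge arrays, with overlapping groups and a difference of -0.22 (95% interval -1.19 to 0.74). Its other probe set gave 0.03. Hoxa2, a gene of hindbrain and craniofacial patterning, had 6.89 and 7.19 against 7.42 and 8.27, at least 1.53-fold higher, and was above background in the bulge group alone. Hoxa3, Hoxa4, Hoxa10, Hoxa11 and Hoxa13 were below background on all 4 arrays. The fitted difference of Hoxa10, 2.66 ± 1.78 (SE), came from total replicate 2 alone, at -0.80 where the other 3 arrays were between 4.63 and 4.82.

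**Figure D2:**
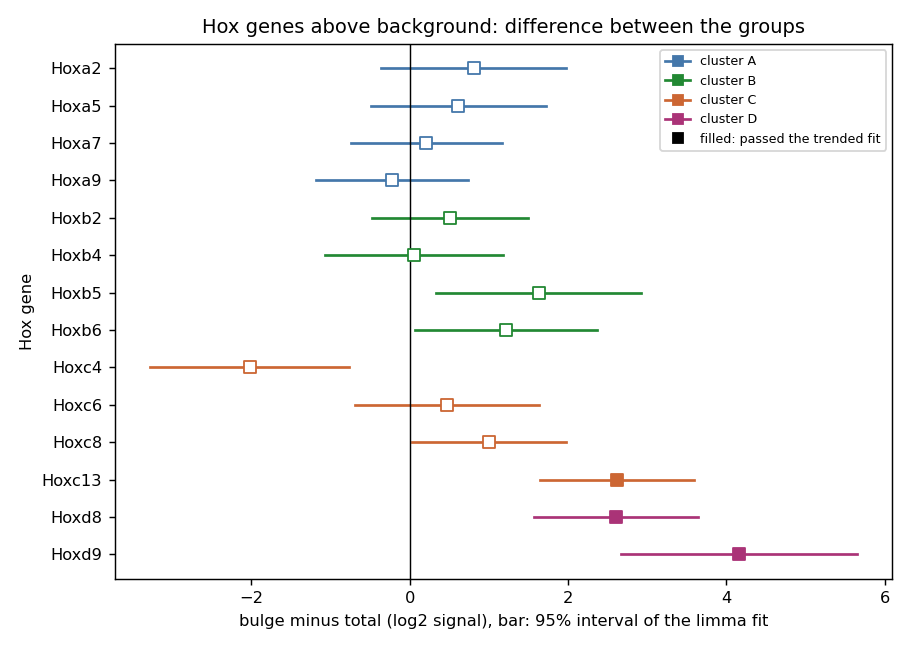
Difference between the bulge and total groups (x axis, log2 signal) for the 14 Hox genes above background (y axis), coloured by cluster, with the 95% interval of the limma fit without the trend. Filled squares mark Hoxc13, Hoxd8 and Hoxd9, which passed the trended fit; Hoxa9 and Hoxc4 are the only genes left of 0. The positions of Hoxc13 and Hoxd9 depend in part on total signals under background.

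Read by position, signal above background was commonest in the middle of the clusters. It was found for 2 of 6 anterior genes (positions 1 to 3), 9 of 12 central genes (positions 4 to 8) and 3 of 13 posterior genes (positions 9 to 13), beside 58.5% of all genes. The 3 posterior genes were Hoxa9, Hoxd9 and Hoxc13. A probe set under background gives a bound and does not show that a gene was silent. All measured genes at positions 2, 6 and 8 were above background, and none at positions 1, 3, 10, 11 and 12. At position 4, Hoxc4 had a difference of -2.02 and Hoxb4 one of 0.05 with overlapping groups, while Hoxa4 was under background on all 4 arrays, with both bulge arrays below both total arrays (-1.25). At position 9, Hoxd9 rose while Hoxa9 had -0.22, and at position 13 Hoxc13 rose while Hoxa13, Hoxb13 and Hoxd13 were under background on all 4 arrays.

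**Figure D3:**
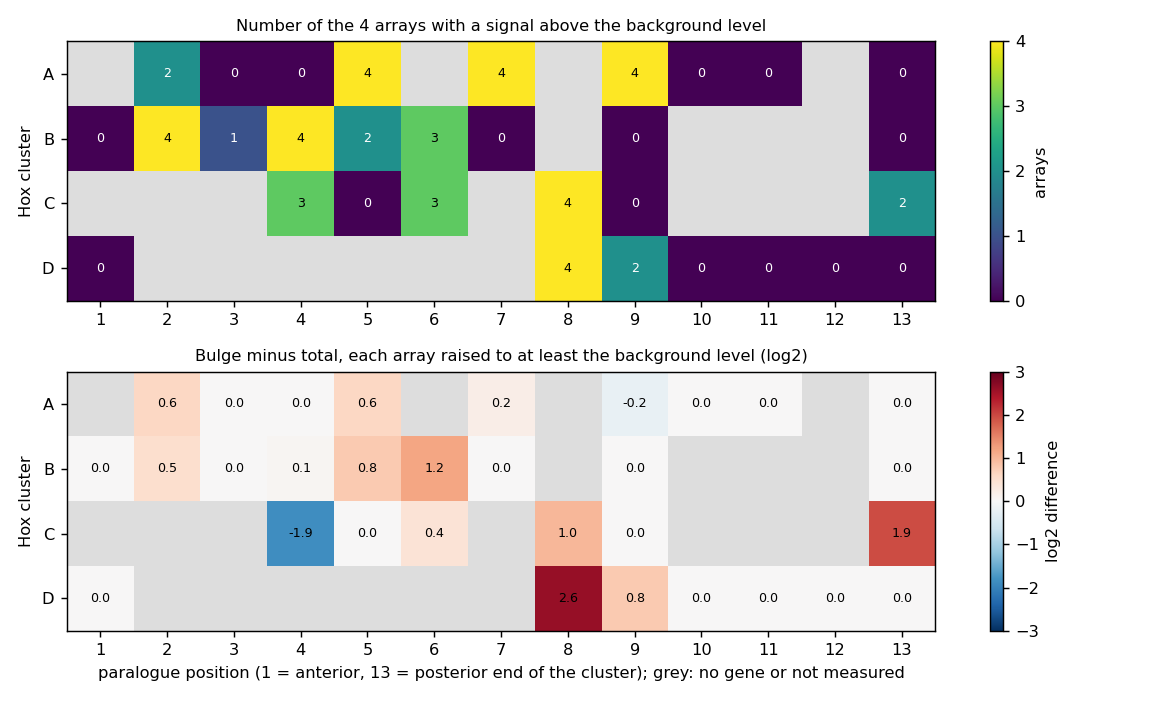
Hox genes by cluster (rows) and paralogue position (columns); grey cells hold no gene or a gene not measured. The upper panel gives the number of the 4 arrays above background. The lower panel gives the difference between bulge and total on the log2 scale after each array was raised to at least the background level. Hoxd8 is at 2.6, Hoxc13 at 1.9 and Hoxc4 at -1.9. Hoxd9 is at 0.8, below Hoxb6 at 1.2 and Hoxc8 at 1.0, which did not pass.

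Over the 31 genes the median difference was 0.50, beside -0.02 over all 12393 genes. Differences were positive for 21 of the 31 (67.7%), beside 48.3% of all genes. Both bulge arrays were above both total arrays for 14 Hox genes and below them for 4, beside 18% and 20.5% of all genes. These counts include genes whose signals were under background in both groups. With signals under background set to the background level, the median difference was 0, since 17 genes lay below it. By cluster the median difference over measured genes was 0.21 for A, 0.50 for B, -0.39 for C and 0.98 for D, where the median gene of D, Hoxd13, was under background on all 4 arrays. Over the genes above background the medians were 0.41 for A, 0.86 for B, 0.73 for C and 3.38 for D, so that the sign for C turned. The value for D rests on Hoxd8 and Hoxd9 alone, and the difference of Hoxd9 depends on total signals under background. With signals under background set to that level, the medians over measured genes were 0 for A, 0.02 for B, 0.20 for C and 0 for D. For the 14 genes above background the median was 0.71. Of these, 12 differences were positive, beside 49.6% of all genes above background. The groups did not overlap for 10 that were higher and 1 that was lower, beside 20.7% and 22% of all genes above background, 42.8% in either direction (38.5% over all genes, above background or not). Of the 14, 10 were above background in both groups and 4 (Hoxa2, Hoxb5, Hoxc13 and Hoxd9) in the bulge group alone, so they could only be higher there.

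Among the TALE cofactors, 8 genes were measured and 4 were above background, beside 58.5% of all genes. In either fit 0 passed, where 1.08% of all genes passed with the trend. The median difference of the 8 was 0.04. Pbx3, a Hox DNA-binding partner, had signals of 8.12 and 7.87 on total arrays against 10.27 and 9.09 on bulge arrays, with a difference of 1.68 and adjusted p = 0.213 by trended limma. Meis1, another partner, had 9.99 and 9.73 against 9.78 and 9.27, with overlapping groups. Meis2, named after its values were seen, had 8.08 and 8.37 on the total arrays and was below background on both bulge arrays, at least 1.99-fold lower with an adjusted p of 0.144. Among cofactors above background, differences thus lay on both sides of 0.

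The listed regulators of Hox clusters included Polycomb and Trithorax group genes, Cdx genes and retinoic acid receptors. Of 25 measured genes of 29 listed, 18 were above background, beside 58.5% of all genes. In either fit 0 passed, where 1.08% of all genes passed with the trend. Differences ran from -1.05 to 1.05, with a median of -0.05. Both bulge arrays were above both total arrays for 2 regulators and below them for 6, beside 18% and 20.5% of all genes. Ctcf, the insulator protein gene, had a difference of -0.44 with overlapping groups, and Wdr5, a subunit of histone H3 methyltransferase complexes, had -0.12. Cdx1, Cdx2 and Cdx4, which activate Hox genes in the embryo, were below background on all 4 arrays. Genes flanking the clusters were measured for 10 of 16 positions. Of these, 7 were above background and 0 passed in either fit, beside the same shares of all genes (58.5% and, with the trend, 1.08%). Their median difference was -0.01. Hibadh and Atp5g2, the brightest, had differences of 0.27 without overlap and -0.08 with overlap. Snx10, near the anterior end of the A cluster, had 6.32 and 6.45 on total arrays against 7.69 and 8.04 on bulge arrays, at least 1.56-fold higher, adjusted p = 0.198 by trended limma. Skap2, Snx11 and Cbx5 had differences of -0.36, 0.06 and -0.46, and Evx1 and Calcoco2 were under background on all 4 arrays. Mtx2, beyond Hoxd1, had a difference of 0.31 with overlapping groups, and Evx2, beyond Hoxd13, was under background on all 4 arrays.

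Of 25 listed hair shaft genes linked to Hoxc13, 21 were measured and 0 passed in either fit. With the trend 1.08% of all genes passed, and at that share a list of this size could hold no call. Above background were 4 of the 21, beside 58.5% of all genes. The median difference over the 21 was -0.09. Krt32, a hair cuticle keratin gene, had 9.80 and 9.57 on total arrays against 9.27 and 9.93 on bulge arrays. Krt81, a hair cortex keratin gene, had 8.55 and 8.69 against 8.32 and 7.66, a difference of -0.63. Foxn1, a transcription factor gene that Hoxc13 is known to regulate, was below background on all 4 arrays. A further pair was named after their values were seen. Foxq1, a hair shaft transcription factor gene, had 8.63 and 8.68 on total arrays against 7.70 and 7.09 on bulge arrays, at least 2.28-fold lower, adjusted p = 0.267 by trended limma. Krt75, a companion layer keratin gene, had 6.95 and 6.63 on total arrays against 8.17 and 8.52 on bulge arrays, at least 2.17-fold higher with adjusted p = 0.164 by trended limma.

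Measured were 14 markers of fibroblasts and dermal papilla, 7 of melanocytes, 7 of endothelium and 6 of muscle and adipocytes. None passed in the fit across all genes, with or without the trend, where 1.08% of all genes passed with it. Of the fibroblast and dermal papilla markers, 11 were below background on all 4 arrays, among them Dcn, Lum, Pdgfra, Prrx1 and Twist2, and 8 had negative differences, with a median of -0.36. Their summed signal was 1900 and 2245 on total arrays against 4789 and 2308 on bulge arrays. The collagen gene Col1a2 alone made the bulge sums higher, at 7.79-fold (adjusted p = 0.0629 by trended limma, and 0.0400 where only genes above background were tested). Without it the sums were 1557 and 1959 against 937 and 766. Thy1, the other bright member, lay at least 5.36-fold lower in the bulge group. Its log2 signals were 9.78 and 10.50 on total arrays against 7.03 and 8.20 on bulge arrays. Thy1 is also in the leukocyte list, and the lower sums without Col1a2 came from it. With Thy1 left out as well, the sums of both groups overlapped.

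Of the melanocyte markers 5 were above background. Mitf, a melanocyte transcription factor gene, lay 6.35-fold higher in bulge cells. The other 6 markers, among them Dct with a difference of -1.22, were lower there without overlap, beside 20.5% of all genes. The summed signal was 2893 and 2111 on total arrays against 7077 and 3328 on bulge arrays, and without Mitf 1907 and 1732 against 952 and 868. So Hoxd8, Hoxd9 and Hoxc13 rose where Col1a2 and Mitf were higher. The sum of the other melanocyte markers was lower there. That of the other fibroblast and dermal papilla markers was lower only through Thy1, which is also in the leukocyte list. Both groups were sorted for GFP driven by the keratin 14 promoter, and the bulge group also for high α6 integrin and CD34. The part of fibroblasts, dermal papilla cells and melanocytes in the rises was not tested. Endothelial markers were above background for 1 gene (Kdr, with Cdh5 the next in mean signal and below it), and muscle and adipocyte markers for Acta2, with Des above it on 1 array.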

How the data were processed

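The authors deposited 1 table of linear intensity per probe set (22690 probe sets, 4 arrays), with 200 ng of RNA amplified per sample, per the labels' protocols. GCOS, R 2.15.1, affy 1.36 and RMA are named, without roles, in the submitters' processing notes, and which of them made the values is not given in the sources used here. The mean trimmed by 2% at each end was 500 on every array, a scaling that RMA does not give. Array medians lay between 123.6 and 145.01. Precision is limited by having 2 arrays per group.

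Log2 was taken of the intensity with no further normalization. Probe set names came from the platform annotation and were brought up to date with RefSeq through Entrez IDs (20351 of 20380 with 1 symbol matched). Control probe sets and those with several or no symbols (64, 691 and 1555) were left out. The test was limma 3.58.1 in R 4.3.3, two-sided, on group alone, with a trended variance model reported beside it, at an adjusted p of 0.05. Fits were tested on simulated data. A fold is given as at least N where an array of the dimmer group was under background, which then stands in for it. Such bounds leave out sampling error. All Hox genes above background are named with values, and of each gene list the called genes and the 2 with the highest mean signal, with all measured neighbours of the clusters. Genes outside this rule are given as examples or said to be named after their values were seen. The members, lists, tests and alternatives were chosen with earlier results of these data known. Promoter sequences were available for 18 measured Hox genes, from RefSeq (GRCm38.p6).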

Additional observations from a re-analysis of the deposited data

How the results depend on the processing

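The count of genes called depended on the variance model and on the genes tested. Over all genes limma called 0, and it called 134 with an intensity trend, 222 when only genes above background were tested, 202 with both (a setting added after seeing the data) and 37 with log2 of signal plus 32. For the Hox genes the count was 0, and it was 3 with the trend, 3 with genes above background alone and 3 with both, each time Hoxc13, Hoxd8 and Hoxd9. Leaving out 1 array gave 0 to 388 calls over all genes and 0 to 4 among the Hox genes, the highest with the trend and without bulge replicate 1 (388 and 4). With the trend and without bulge replicate 2 the counts were 350 and 2. In such fits the lone array was assumed to vary like the other group. The labels do not say that equal replicate numbers mark a pair. With the replicate block limma called 0 genes, and with the block and the trend 917 genes, 6 of them Hox genes (Hoxb3, Hoxb5 and Hoxc4 beside the 3). Replicate differences correlated between the groups at r = 0.579 over 7249 genes above background. The SD of these differences was 0.553 (total) and 0.917 (bulge).

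The difference kept its direction in all settings run for 12 of the 14 Hox genes above background. Hoxa9 turned to 0.0294 in its other probe set. Hoxb4 ran from -0.35 to 0.46 when 1 array was left out, negative without bulge replicate 1 and, at -0.00478, without total replicate 1. The cause was not tested. The number of Hox genes above background was 13 to 16, and their median difference 0.64 to 0.86. Signals under background limit what can be said of the other 17 genes.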
